A study of Mus musculus with 23 samples.

Results

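Gastrocnemius muscle of mice flown in space was compared with gastrocnemius of mice that stayed on Earth in the same rodent housing unit, the animal enclosure module (ground AEM). The comparison used 8 of the 23 arrays of the series, chosen by sample title: 4 titled spaceflight, with replicate numbers 8 to 11, and 4 titled AEM, with replicate numbers 1 to 4. All were female C57BL/6J mice aged 77 days, with no transgene, deletion or drug named in the labels, and both groups lasted 11 days and 19 hours. The other 15 arrays hold calf muscle, 5 each of untreated controls, of mice suspended by the hindlimbs for 12 days and of mice suspended for 12 days and reloaded for 3.5 hours, and are used only where the flight effect was set against a calf effect. Total RNA of each sample was read on 1 Affymetrix array, and values are deposited log2 signals. Whether every replicate came from its own mouse is not stated, and the p-values therefore cover only sample-to-sample spread, which may be technical. They also do not give the interval between landing and dissection. Source names and the design text bear out the titles, whereas the free-text descriptions of the 2 groups are exchanged. Under those descriptions the differences between spaceflight and ground AEM take the opposite sign, and the differences from the calf effects become sums.

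Gastrocnemius is a calf muscle built mostly of fast, glycolytic fibres with a smaller share of slow, oxidative ones, and it loses mass when it carries no load. Glucocorticoids, the adrenal stress hormones, act on muscle through a receptor that switches on genes for metal binding, growth arrest and protein breakdown, and they oppose insulin and mTOR, the kinase that drives protein synthesis. Muscle also holds capillary endothelium, connective tissue fibroblasts and fat cells, and their transcripts are read together with those of the fibres. In such bulk samples, fewer cells of a type and less RNA per cell cannot be told apart.

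Muscle genes dominated all 8 arrays. Skeletal actin Acta1 read 13.77 to 13.89, creatine kinase Ckm 13.83 to 13.87 and the fast myosin Myh4 13.26 to 13.49, and 0 of 15 genes of skeletal muscle identity were called. Array medians of the log2 values lay between 6.15 and 6.23, and the median correlation of an array with the rest of its group was at least 0.992. The first principal component held 40.5% of the variance and placed the 4 ground AEM arrays between -14.2 and -4.4 and the 4 spaceflight arrays between 8.0 and 11.6. Ground AEM 2 was the ground array nearest to the spaceflight arrays on that axis. Among other cell types, 0 of 15 smooth muscle and pericyte, 0 of 10 Schwann cell and nerve, 0 of 11 lymphocyte and neutrophil and 0 of 5 skin markers were called, and 1 of 20 macrophage markers rose. Over all tested genes only 5.64% were called, so zeros in lists this short say little. Of 9 adipocyte markers 5 rose (55.6%), where 3.18% of all tested genes rose. Of 4 erythroid markers 1 fell, where 2.46% of all tested genes fell. It was the haem enzyme Alas2 (-0.28 ± 0.07, adjusted p = 0.0405), whose call ended without any array but ground AEM 1 or spaceflight 8 (0.0732 to 0.115). Array range, the distance from the 25th to the 75th percentile, was 2.88 to 2.91 on spaceflight 8, 9 and 10, 2.75 on spaceflight 11, 2.88 on ground AEM 1 and 2.77 on the other ground arrays.

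In limma, 515 of 9133 genes differed at an adjusted p under 0.05, which is 5.64% of the genes tested. In spaceflight 290 genes were higher (3.18%) and 225 lower (2.46%). Most differences were small: the median fold was 1.40 among the higher and 1.36 among the lower genes, and 32 rose and 6 fell at least 2-fold. The groups did not overlap in 1131 genes, 12.4% of those tested, and in 480 of the 515 called genes. Over all tested genes the median log2 difference (spaceflight minus ground AEM) was -0.01 and the median standard error 0.09. Which arrays entered the fit mattered for the count, which fell to 283 without ground AEM 3, 303 without spaceflight 9, 326 without spaceflight 8 and 328 without ground AEM 4, and lay between 370 and 491 without each of the other arrays. A core of 234 genes, 144 higher and 90 lower, was called whichever single array was left out. With array range as a covariate 318 genes were called, and with arrays centred on the median of all probe sets the split turned from 290 and 225 to 352 higher and 174 lower. With centring on the tested genes' median the split was 254 higher and 247 lower.

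**Figure D1:**
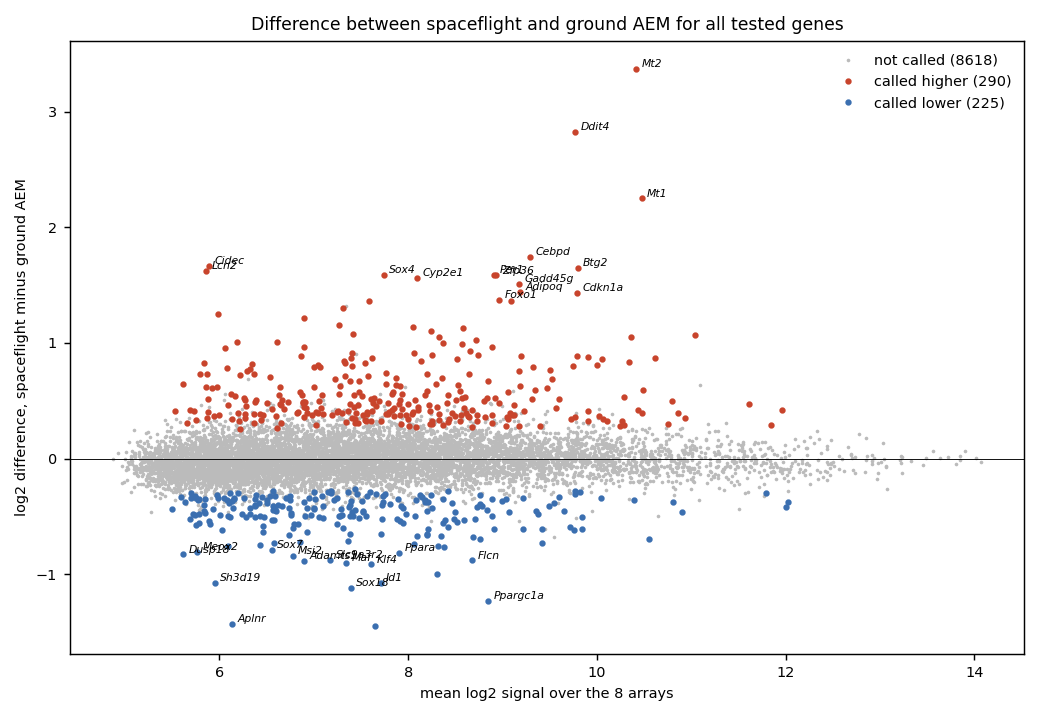
Log2 difference (spaceflight minus ground AEM, vertical axis) of the 9133 tested genes against their mean log2 signal over the 8 arrays (horizontal axis); red points are the 290 genes called higher, blue points the 225 called lower and grey points the rest. Mt2, Ddit4 and Mt1 stand apart at the top with differences of 3.37, 2.82 and 2.25, and Aplnr and Ppargc1a are the lowest labelled points at -1.43 and -1.23.

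The 3 largest rises were the metallothioneins Mt2 and Mt1, small proteins that bind zinc and copper, and Ddit4, an inhibitor of mTOR complex 1. Mt2 read 7.76, 10.51, 8.21 and 8.44 in ground AEM 1 to 4 and 12.19, 12.46, 11.97 and 11.79 in spaceflight 8 to 11. Mt1 read 8.54, 10.88, 8.93 and 9.06 on the ground and 11.51, 11.72, 11.48 and 11.69 in flight. The groups did not overlap in either gene, and ground AEM 2 lay far above the other ground arrays in both. The rise was 10.3-fold for Mt2 (log2 difference 3.37 ± 0.43 SE, limma adjusted p = 0.000596) and 4.75-fold for Mt1 (2.25 ± 0.36, adjusted p = 0.00288). A second, dimmer probe set of Mt1 rose by 1.23. Ddit4 read 7.39, 10.68, 7.80 and 7.57 on the ground and 11.23, 11.33, 10.79 and 11.37 in flight. Its lowest flight value was just above ground AEM 2, and its rise was 7.07-fold (2.82 ± 0.54, adjusted p = 0.00884). Trend and robust estimation in eBayes ended the calls of Ddit4 (adjusted p = 0.102) and of Mt1 (0.0609).

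The metallothioneins lie next to each other on mouse chromosome 8 and are the classical targets of the metal response element, so their promoter windows are shown, from RefSeq on GRCm38.p6 and on the plus strand. Each window runs from 250 bases before to 50 after the listed start. Capitals mark matches on either strand to TGCNCNC, a looser pattern than the metal response core TGCRCNC (R is A or G). Some of them, such as TGCTCTC in Mt2, match only the looser pattern.
Mt2, chr8:94172368-94172667: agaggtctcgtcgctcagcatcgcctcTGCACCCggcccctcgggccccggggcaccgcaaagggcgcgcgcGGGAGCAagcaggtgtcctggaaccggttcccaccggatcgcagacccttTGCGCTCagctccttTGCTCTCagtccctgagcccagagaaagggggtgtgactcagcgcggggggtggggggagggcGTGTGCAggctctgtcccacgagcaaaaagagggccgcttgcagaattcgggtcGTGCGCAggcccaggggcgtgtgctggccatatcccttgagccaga
Mt1, chr8:94178839-94179138: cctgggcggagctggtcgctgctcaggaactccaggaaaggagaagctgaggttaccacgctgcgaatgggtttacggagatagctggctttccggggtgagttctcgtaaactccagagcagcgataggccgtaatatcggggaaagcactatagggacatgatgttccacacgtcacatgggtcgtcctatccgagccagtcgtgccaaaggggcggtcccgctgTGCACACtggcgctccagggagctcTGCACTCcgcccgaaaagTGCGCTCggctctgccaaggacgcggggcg
The Mt2 window holds 6 matches to the looser pattern and the Mt1 window 3. Of 7340 tested genes with a window, 0.327% hold at least 6 and 10.2% at least 3, while 59.6% hold at least 1. Among genes called higher 58.8% of windows hold a match, and among genes called lower 61.1%. A match is a string of letters and does not show that a factor binds there.

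Most listed genes that respond to glucocorticoids rose. Of 32 listed genes 29 were on the array and tested, and 19 rose, 0 fell and 10 did not pass, where 3.18% of all tested genes rose. The median of the 29 was 0.70, against -0.01 over all genes. This list, like the others, was written with earlier results of these data known, so its counts are a description and not a test. Cebpd, a transcription factor of the acute stress response, read 8.41, 8.90, 8.41 and 7.97 on the ground and 10.15, 9.89, 10.14 and 10.49 in flight (1.74 ± 0.17, adjusted p = 0.000109). Lcn2, a secreted iron-trapping protein, read 4.67, 5.80, 4.77 and 4.94 on the ground and 6.84, 6.71, 6.48 and 6.64 in flight (1.62 ± 0.19, adjusted p = 0.000411). Its ground values all lay below the level filter of log2 5.83 and it was kept for testing through the flight arrays, so its place among the 19 is a description. The clock gene Per1, which the receptor also switches on, read 8.02, 8.97, 7.89 and 7.58 on the ground and 9.89, 10.07, 9.37 and 9.49 in flight (1.59 ± 0.24, adjusted p = 0.00209). None of these 3 genes had overlapping groups, and ground AEM 2 was again the highest ground array in each. A dim second probe set of Cebpd differed by 0.06 and did not pass.

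The mRNA-destabilising protein Zfp36 rose by 1.58 ± 0.23 and Foxo1, which switches on protein breakdown in wasting muscle, by 1.37 ± 0.16; among other probe sets of Foxo1 above the filter, a dim one did not pass. Foxo3, its relative, rose by 0.55 ± 0.09. Klf15, a factor that drives amino acid catabolism, read 8.84, 9.09, 8.53 and 8.71 on the ground and 9.50, 9.64, 9.53 and 9.53 in flight. Every flight value of Klf15 lay above every ground value, and the rise was 0.76 ± 0.11 (adjusted p = 0.00103). Smaller or similar rises were in the NF-kappa-B inhibitor Nfkbia (0.87), the receptor chaperone Fkbp5 (0.84), the lipoprotein lipase inhibitor Angptl4 (0.70) and the transcription factors Cebpb (0.53) and Klf9 (0.40). The receptor itself, Nr3c1, did not pass (0.24, adjusted p = 0.361), nor did the phosphatase Dusp1 (0.16) or Tsc22d3, a mediator of the hormones' anti-inflammatory action (0.26). Glutamine synthetase, Glul, did not pass in its brighter probe set (0.32, adjusted p = 0.0622) and rose by 1.00 in the other; the brighter one passed without ground AEM 1 (0.0322) or spaceflight 9 (0.0461). Of the 19 rises, 16 were called whichever array was left out; the call of Cebpb ended without ground AEM 1 (adjusted p = 0.051), ground AEM 4 (0.0672), spaceflight 8 (0.0589) or spaceflight 9 (0.0683), and that of Klf9 without ground AEM 3 (0.0573), spaceflight 8 (0.0524) or spaceflight 9 (0.0572). Ground AEM 2 was the highest of the ground arrays in 22 of the 29 genes, and without it 19 again rose and the median was 0.73. Of 17 called members with a promoter window, 2 held the receptor's hexamer TGTTCT, which 13.1% of all tested genes held.

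**Figure D2:**
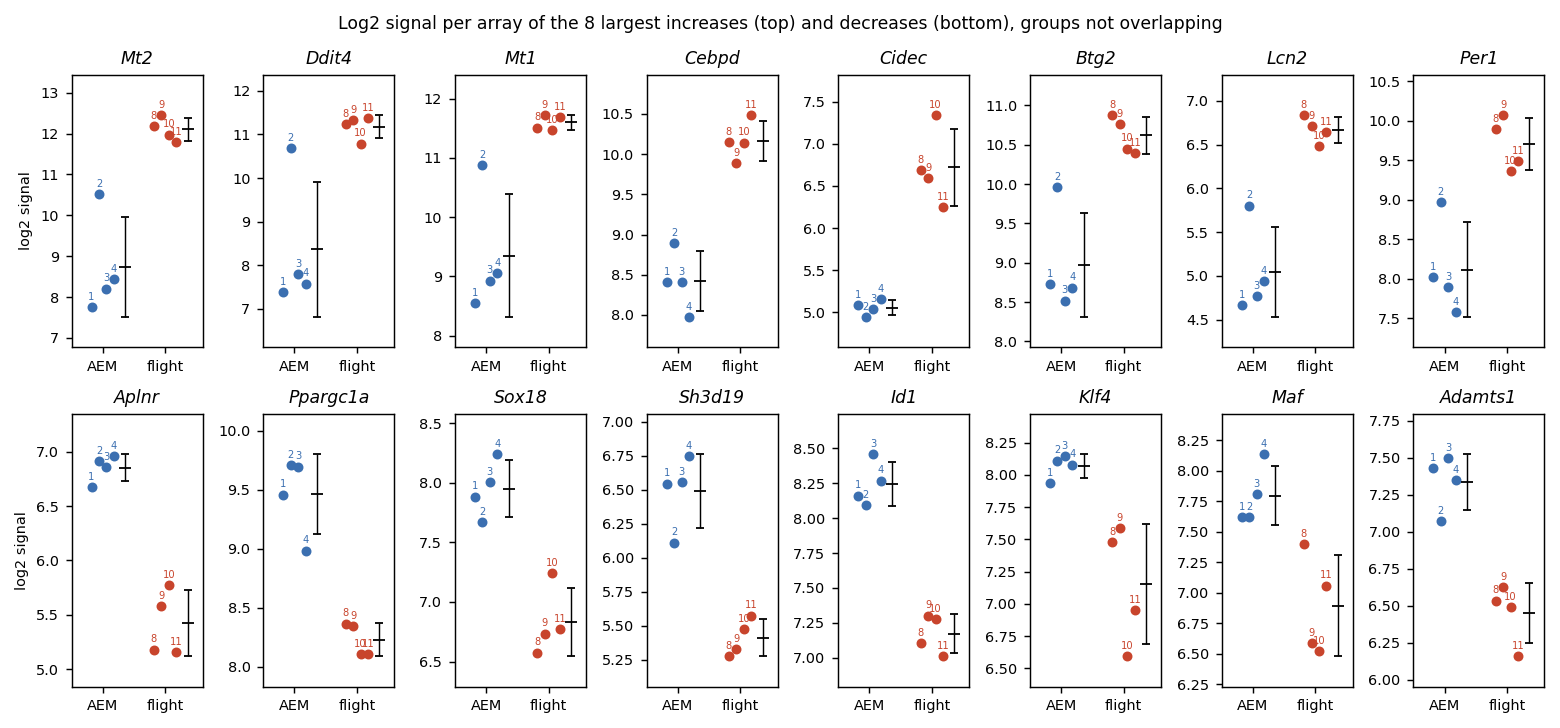
Log2 signal (vertical axis, 1 scale per gene) on each array for the 8 largest rises and the 8 largest falls among called genes whose groups do not overlap; blue points are ground AEM and red points spaceflight arrays, numbered by replicate, and the black bars show the mean and SD of each group (n = 4). Ground AEM 2 is the highest ground array for 7 of the 8 rises, Cidec being the exception, and stands at 10.51 for Mt2 against 7.76 to 8.44 on the other ground arrays.

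Genes of growth arrest were among the larger rises. Of 21 tested p53 target and growth arrest genes 6 rose, 0 fell and 15 did not pass, where 3.18% of all tested genes rose. Their median was 0.24. Btg2, an antiproliferative protein, read 8.73, 9.96, 8.52 and 8.68 on the ground and 10.88, 10.76, 10.45 and 10.39 in flight (1.65 ± 0.25, adjusted p = 0.00196). Cdkn1a, the cell cycle inhibitor p21, read 8.89, 9.41, 9.14 and 8.87 on the ground and 10.44, 10.42, 10.77 and 10.40 in flight (1.43 ± 0.12, adjusted p = 9.1e-05). Neither gene's groups overlapped, and a second probe set rose in both, by 1.52 and 1.22. Gadd45g rose by 1.51 ± 0.27, Trp53inp1 by 1.16 ± 0.15 and Sesn1, a sestrin that restrains mTOR complex 1, by 0.77 ± 0.10. A dimmer probe set of Trp53inp1 differed by 0.24 and did not pass. Gadd45b rose by 0.89 ± 0.20 with overlapping groups. Under trend and robust estimation the calls of Gadd45g (adjusted p = 0.0748) and Gadd45b (0.128) ended, and that of Gadd45b ended also without any array but ground AEM 2 or spaceflight 10 (0.0539 to 0.0752). The p53 target Mdm2 did not pass (0.09). Sox4, a transcription factor from the list of myogenic regulators, rose by 1.59 ± 0.18, and 4 of its 5 other probe sets above the level filter rose by 1.39 to 3.38.

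Some immediate-early genes, which are induced within minutes of a stimulus, rose. Of 23 tested 6 rose and 0 fell, where 3.18% of all tested genes rose. Their median was 0.30, and ground AEM 2 was the highest ground array in 11. Jun, a subunit of the factor AP-1, rose by 0.61 ± 0.10, and Ier5 by 0.72 ± 0.11. Maff rose by 1.31 ± 0.28 with overlapping groups, and its call ended without ground AEM 3 (adjusted p = 0.0569) or ground AEM 4 (0.0593). Fos (0.51 ± 0.37), Atf3 (0.48 ± 0.24) and Egr1 (-0.07 ± 0.24) did not pass. Without spaceflight 11, Fos (0.97, adjusted p = 0.0341) and Atf3 (0.74, adjusted p = 0.0369) were called higher. Jun and Ier5 each had a dimmer probe set that did not pass (0.14 and -0.05). Among Krueppel-like and C/EBP factors, 6 of 18 rose and 2 fell (44.4%, against 5.64% of all genes). The lists share genes, so their counts are not separate results. Cebpd is also in the glucocorticoid list, Btg2 in the p53 and immediate-early lists, and Cidec in both fat cell lists. Klf10, a factor induced by TGF-beta, rose by 0.90 ± 0.15, and Cebpa, a factor of fat cells and liver, by 0.84 ± 0.08. Klf4 read 7.93, 8.11, 8.14 and 8.08 on the ground and 7.48, 7.59, 6.59 and 6.95 in flight (-0.91 ± 0.17, adjusted p = 0.00851). Klf2, like Klf4 a factor that endothelium switches on under blood flow, fell by 0.56. When all 23 arrays entered 1 fit, the calls of Klf10 (adjusted p = 0.083) and Klf2 (0.0639) ended.

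Of 17 tested clock genes 4 rose and 0 fell, where 3.18% of all tested genes rose. The 4 were Per1, the repressor Nfil3 (1.02 ± 0.13), Arntl (0.44) and Nr1d1 (0.37). Per2 (-0.07) and the clock output Dbp (-0.45, adjusted p = 0.182) did not pass. The call of Arntl ended without any array but spaceflight 9 (adjusted p = 0.0583 to 0.109), and that of Nr1d1 without ground AEM 3 (0.0657), ground AEM 4 (0.0589), spaceflight 8 (0.0691) or spaceflight 11 (0.0572). The labels do not give the hour of dissection.

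Regulators of mTOR and insulin signalling changed in both directions. Of 23 mTOR regulators 4 rose and 2 fell (26.1%, against 5.64% of all genes). Flcn, folliculin, a regulator of the lysosomal branch of the pathway, read 9.39, 9.05, 8.99 and 9.03 on the ground and 8.30, 8.49, 8.15 and 8.00 in flight (-0.88 ± 0.12, adjusted p = 0.000675). Its second probe set fell by 0.61. The GTPase Rragd, a partner of folliculin in that branch, fell by 0.57 ± 0.12. Both repressors of translation on the list rose: Pdcd4, which blocks the helicase eIF4A, by 0.67 ± 0.07 and Eif4ebp1, which blocks eIF4E, by 0.52 ± 0.08. Ulk1, the kinase that starts autophagy, rose by 0.33, a call that ended without any array but ground AEM 2 (adjusted p = 0.0546 to 0.116). The kinase Mtor itself did not pass (0.15).

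Of 31 insulin and IGF genes 8 rose and 2 fell (32.3%, against 5.64% of all genes). Irs1, the docking protein of the insulin receptor, read 10.97, 10.87, 10.87 and 10.91 on the ground and 10.13, 10.31, 10.16 and 10.23 in flight (-0.70 ± 0.07, adjusted p = 0.000217). All 4 flight values lay below all 4 ground values. Irs2 did not pass (0.17). The regulatory PI3-kinase subunit Pik3r1 rose by 0.62 ± 0.12. The IGF-binding proteins Igfbp3 (0.50) and Igfbp5 (0.39), the phosphatase Ptpn1 (0.43) and the cytokine inhibitor Socs2 (0.51) were called higher less firmly. Igfbp3 lost its call without ground AEM 3 (adjusted p = 0.0957), spaceflight 8 (0.065) or spaceflight 11 (0.0599), and Ptpn1 without ground AEM 3 (0.0539) or spaceflight 10 (0.0501). Igfbp5 lost it without any array but ground AEM 3 or spaceflight 10 (0.0563 to 0.13), and Socs2 without any but spaceflight 10 (0.0554 to 0.124). Another probe set above the filter differed by -0.10 for Igfbp5 and by -0.04 for Ptpn1, and neither passed. Igf1 did not pass (-0.07).

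Several transcripts of fat cells and of fatty acid synthesis rose in spaceflight, while most of both lists did not pass. Cidec, a protein that enlarges lipid droplets, read 5.09, 4.94, 5.03 and 5.15 on the ground and 6.69, 6.60, 7.34 and 6.25 in flight (1.67 ± 0.17, adjusted p = 0.00019). Its ground values all lay below the level filter, while 4 calf arrays lay above it. The fat cell hormone adiponectin, Adipoq, read 8.58, 8.08, 8.62 and 8.57 on the ground and 10.08, 9.68, 9.95 and 9.92 in flight (1.44 ± 0.12, adjusted p = 9.1e-05). Neither overlapped, and here ground AEM 2 was the lowest ground array. The 25 tested genes of fat cell hormones and lipid droplets had a median of 0.22. Of these 7 rose, 0 fell and 18 did not pass, where 3.18% of all tested genes rose. They included resistin, Retn (1.05 ± 0.13), the droplet coat protein Plin4 (1.07 ± 0.14), hormone-sensitive lipase, Lipe (0.63 ± 0.11), and leptin, Lep (0.62 ± 0.13). The droplet coat protein of muscle fibres, Plin2, did not pass (0.08). The call of Lep ended with array range as a covariate (adjusted p = 0.0676).

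Of 15 listed adipocyte markers 9 were tested, while Pck1 and Pparg were among those below the level filter. Of the 9, 5 rose, 0 fell and 4 did not pass, where 3.18% of all tested genes rose. Mean log2 signal of the 9 was 8.17 to 8.36 on the ground arrays and 8.81 to 9.10 on the flight arrays. The 4 that did not pass were the fatty acid carrier Fabp4 (0.27, adjusted p = 0.0651), Car3 (-0.11), Scd1 (0.30) and Npr3 (0.13). Another probe set of Fabp4 passed (0.29, adjusted p = 0.037), and Fabp4 was called with the mean of its probe sets (0.0413), with centring on all probe sets (0.0461) and under trend and robust estimation (0.0155). The part of the adipocyte markers in the other lipid results was not tested. In fatty acid and sterol synthesis 5 of 26 genes rose, 0 fell and 21 did not pass, where 3.18% of all tested genes rose. Fasn, fatty acid synthase, read 7.76, 8.24, 8.19 and 7.88 on the ground and 9.50, 9.01, 9.16 and 8.91 in flight (1.13 ± 0.14, adjusted p = 0.000416). Thrsp, a regulator of lipogenesis, rose by 1.36 ± 0.13, transketolase, Tkt, by 0.99 ± 0.12 and ATP citrate lyase, Acly, by 0.64 ± 0.10. The elongase Elovl6 rose by 0.47, a call that ended without ground AEM 1 (adjusted p = 0.0752), ground AEM 4 (0.102), spaceflight 8 (0.0852) or spaceflight 9 (0.0691). The lipogenic factor Srebf1 did not pass (0.41, adjusted p = 0.0649), although it did without spaceflight 11 (0.032), with array weights (0.0416) and under trend and robust estimation (0.0365). Cyp2e1, a cytochrome P450 abundant in liver and fat, rose by 1.56 ± 0.26, with spaceflight 10 at 9.79 and the other flight arrays at 8.19 to 8.83; its call ended under trend and robust estimation (adjusted p = 0.0548).

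Ppargc1a, the coactivator that drives mitochondrial biogenesis, read 9.46, 9.71, 9.69 and 8.98 on the ground and 8.37, 8.34, 8.11 and 8.11 in flight (-1.23 ± 0.14, adjusted p = 0.000322). Its 4 other probe sets above the filter fell by 0.55 to 1.08. Of 27 coactivators and nuclear receptors 0 rose and 2 fell, the second being the lipid-sensing receptor Ppara (-0.82 ± 0.16, adjusted p = 0.0104). The sister coactivator Ppargc1b stayed at 8.13 and 8.14 in the group means and did not pass. Of 27 genes of fatty acid oxidation 1 rose and 0 fell (3.7%), and of 36 genes of the citric acid cycle and mitochondrial import 1 rose and 1 fell (5.56%), shares near the 5.64% of all genes. The uncoupling protein Ucp3 rose by 0.80 ± 0.17, a call that ended under trend and robust estimation (adjusted p = 0.0686), with the mean of its probe sets (0.0641) and with all 23 arrays in 1 fit (0.105). In glucose metabolism 1 of 39 genes rose and 2 fell (7.69%), and hexokinase Hk2 (-0.02) and the glucose transporter Slc2a4 (-0.25) did not pass. The rise was in Txnip, which restrains glucose uptake (0.42 ± 0.08), while its other probe set differed by 0.24 and did not pass.

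The largest falls held several genes of endothelium, the lining of blood vessels. Aplnr, the apelin receptor, read 6.68, 6.91, 6.86 and 6.96 on the ground and 5.18, 5.58, 5.77 and 5.16 in flight (-1.43 ± 0.13, adjusted p = 9.1e-05). Its flight values all lay below the level filter, while all 15 calf arrays lay above it. Sox18, a transcription factor of vessel growth, read 7.88, 7.67, 8.01 and 8.24 on the ground and 6.57, 6.73, 7.24 and 6.77 in flight (-1.12 ± 0.14, adjusted p = 0.000596). Sox7, its close relative, read 6.92, 6.89, 7.02 and 6.98 on the ground and 6.18, 6.14, 6.21 and 6.12 in flight (-0.79 ± 0.07, adjusted p = 9.1e-05). In these 3 genes every flight array lay below every ground array, and ground AEM 2 lay with its group. A second, dim probe set of Aplnr differed by -0.26 and did not pass.

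Of 37 tested genes of vascular growth and endothelium 0 rose and 7 fell, where 2.46% of all tested genes fell, and the median was -0.14. The other falls were thrombomodulin, Thbd (-0.60 ± 0.07), the growth factor Vegfa (-0.59 ± 0.12), the transcription factor Fli1 (-0.48 ± 0.08) and the VEGF receptor Kdr (-0.32 ± 0.08). The call of Kdr ended without any array but ground AEM 1 or spaceflight 11 (adjusted p = 0.0513 to 0.101). Adhesion molecules that mark endothelial cells did not pass: Pecam1 read 7.37 to 7.60 over the 8 arrays and differed by 0.07, and Cdh5 by 0.11. Mean log2 signal of the list was 7.26 to 7.32 on the ground arrays and 7.11 to 7.19 on the flight arrays. Outside the list, Icam2 (-0.56), Cd93 (-0.50), Podxl (-0.56), Myct1 (-0.53) and Tm4sf1 (-0.65), all known from endothelium, fell. They were chosen after their values were seen. Such a choice leaves out genes that went the other way, so it adds no support to the list's count. Meox2, a homeobox factor of vessels and limb muscle, fell by 0.80 ± 0.10, and the scaffold Slc9a3r2 by 0.88 ± 0.08, with 4 of its 5 other probe sets falling by 0.60 to 1.17.

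Several genes of BMP signalling, which induces the Id inhibitors of differentiation, fell. Id1 read 8.16, 8.09, 8.46 and 8.27 on the ground and 7.10, 7.30, 7.28 and 7.01 in flight (-1.07 ± 0.10, adjusted p = 9.1e-05), and Id3 fell by 0.65 ± 0.10. Of 36 tested TGF-beta, BMP and Id genes 2 rose and 5 fell (19.4%, against 5.64% of all genes). The signal carrier Smad5 fell by 0.59 ± 0.13, the BMP receptor Bmpr2 by 0.51 ± 0.10 and the ligand Tgfb1 by 0.43. The activin receptor Acvr1b rose by 0.67 ± 0.11, although a dimmer probe set differed by -0.13. Smad1 rose by 0.49, but its other probe set differed by -0.01 and the mean of both was not called (adjusted p = 0.195). Several of these calls were less firm: Tgfb1 lost its call without ground AEM 3 (adjusted p = 0.0773), spaceflight 8 (0.0663) or spaceflight 9 (0.0733), Smad1 without any array but ground AEM 1 (0.0543 to 0.113), Smad5 with array range as a covariate (0.0694), and Acvr1b with the mean of its probe sets (0.0678). The feedback inhibitors Smad6 (-0.21) and Smad7 (-0.07) did not pass. Among 25 Wnt genes 2 rose and 3 fell (20%, against 5.64% of all genes). The falls were led by the receptors Fzd9 (-0.67 ± 0.10) and Fzd7 (-0.66 ± 0.09). A dimmer probe set of Fzd7 differed by -0.37 and did not pass. Fzd4 (0.39) and Wnt11 (0.26) rose, and both calls ended without ground AEM 3 (adjusted p = 0.113 and 0.0812). Axin2, a common readout of the pathway, did not pass (0.26).

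Several collagens fell, with wide spread within ground AEM. Col1a1 read 8.13, 8.51, 9.25 and 9.34 on the ground and 7.67, 8.22, 7.83 and 7.54 in flight, so spaceflight 9 overlapped with ground AEM 1 (-0.99 ± 0.23, adjusted p = 0.0256). Col1a2 (-0.73) and Col3a1 (-0.61) also had overlapping groups, and Col5a2 (-0.50) and Col6a2 (-0.48) did not. Of 17 tested collagens 0 rose and 6 fell, where 2.46% of all tested genes fell. Of the 17 differences 16 were negative, with a median of -0.23. None of the 6 calls held whichever array was left out, and 3 were made without ground AEM 2. Col1a1 lost its call without ground AEM 3 (adjusted p = 0.0808), ground AEM 4 (0.0722) or spaceflight 8 (0.0686), 10 (0.0501) or 11 (0.072). Col1a2 and Col3a1 lost theirs without any array but ground AEM 1 or spaceflight 9 (0.0543 to 0.121 and 0.0626 to 0.109), Col5a2 without ground AEM 3 (0.0521), and Col6a2 without ground AEM 3 (0.0581), spaceflight 8 (0.0601) or spaceflight 11 (0.0573). In this list the mean log2 signal was 7.47 to 7.95 on the ground arrays and 7.31 to 7.53 on the flight arrays. Tendon and fibroblast markers had means of 7.69 to 8.47 on the ground and 7.72 to 7.97 in flight. Of these 16 markers 1 was called in each direction (12.5%, against 5.64% of all genes). Their part in the collagen values was not tested.

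The collagen chaperone Serpinh1 fell by 0.53 ± 0.10, the call among 28 genes of collagen assembly, and a second probe set fell by 0.77. The cross-linking enzyme Lox did not pass (0.07). Of 16 basement membrane genes 1 fell and Col4a1 did not pass (0.09). Adamts1, a protease of proteoglycans, read 7.43, 7.07, 7.50 and 7.35 on the ground and 6.53, 6.62, 6.49 and 6.16 in flight (-0.89 ± 0.11, adjusted p = 0.000625). The groups did not overlap, and the inhibitor Timp4 fell by 0.52 ± 0.10. Timp1 (-0.36, adjusted p = 0.071; 0.0326 without ground AEM 1) and the gelatinase Mmp2 (-0.28) did not pass.

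**Figure D3:**
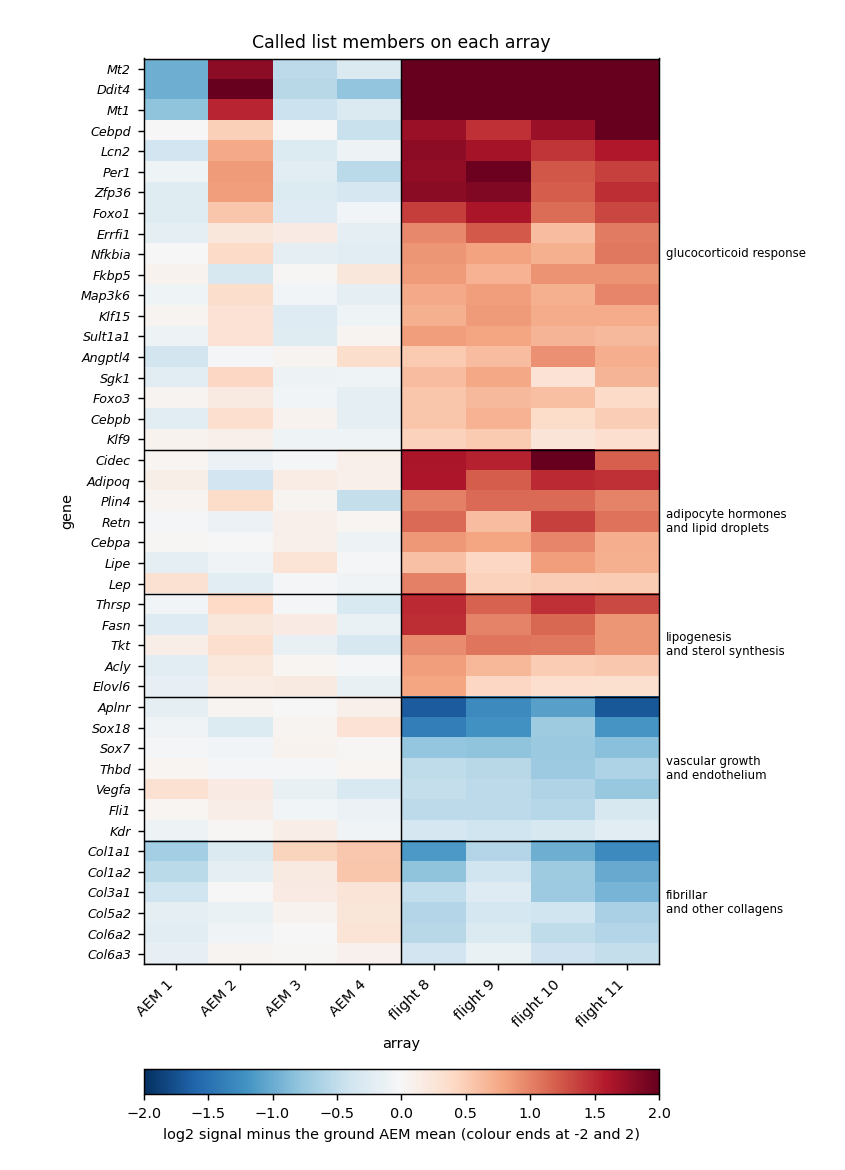
Log2 signal minus the ground AEM mean (colour, red above and blue below, ending at -2 and 2) for called members of 5 gene lists on each of the 8 arrays; rows are genes, columns arrays, and a gene in several lists is shown once. The glucocorticoid rows are red in all 4 flight columns and mostly pale red in ground AEM 2, with Mt2, Ddit4 and Mt1 dark, the endothelial rows are blue in all 4 flight columns, and in the collagen rows ground AEM 1 (Col1a1 at 8.13) leans to blue like the flight arrays.

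Of 18 fast fibre genes 0 were called, and the fast myosins Myh4 (-0.02), Myh1 (-0.05) and Myh2 (-0.22, adjusted p = 0.22) did not pass. Among 19 slow fibre genes 1 rose and 2 fell (15.8%, against 5.64% of all genes). Sarcolipin, Sln, an inhibitor of the calcium pump, read 6.61, 6.58, 6.79 and 7.65 on the ground and 8.66, 8.53, 8.46 and 7.42 in flight (1.36 ± 0.27, adjusted p = 0.0102). Ground AEM 4 and spaceflight 11 crossed, and the call ended with array range as a covariate (adjusted p = 0.0534) and under trend and robust estimation (0.0955). The slow myosin light chain Myl2 fell by 0.42 and phospholamban, Pln, by 0.35, while the slow myosin Myh7 (0.19) and slow troponin Tnni1 (-0.20) did not pass. Myl2 lost its call without ground AEM 3 (adjusted p = 0.0722), ground AEM 4 (0.0635) or spaceflight 8 (0.0615), 9 (0.0752) or 11 (0.0622), and Pln without any array but ground AEM 1 or 2 (0.0501 to 0.0778).

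Genes that rise when muscle loses its nerve were partly higher. Of 25 tested neuromuscular junction and denervation genes 4 rose and 0 fell, where 3.18% of all tested genes rose. The kinase Sik1 rose by 0.91 ± 0.16 and AMP deaminase 3, Ampd3, by 0.56 ± 0.10. Myogenin, Myog, read 7.28, 8.24, 7.66 and 7.68 on the ground and 8.70, 9.02, 8.36 and 8.16 in flight, so ground AEM 2 overlapped with spaceflight 11 (0.84 ± 0.20, adjusted p = 0.0253). Myog lost its call without ground AEM 1 (0.0554), ground AEM 3 (0.0695), ground AEM 4 (0.0644), spaceflight 8 (0.0686) or spaceflight 9 (0.0677). The agrin receptor kinase Musk rose by 0.54 and lost its call without ground AEM 2 (0.0612), ground AEM 3 (0.07), spaceflight 8 (0.0601) or spaceflight 9 (0.0733). The acetylcholine receptor subunit Chrna1 (0.22) and Myod1 (-0.34) did not pass. Of 33 ubiquitin ligases and deubiquitinases 2 rose and 2 fell (12.1%, against 5.64% of all genes). Nedd4l rose by 0.63 ± 0.09, and the muscle ligase subunit Asb15 fell by 0.66 ± 0.13. Ube2j1, a ubiquitin-conjugating enzyme that the list also holds, rose by 0.40 ± 0.08. The atrophy ligase Fbxo32 did not pass in its brighter probe set (0.20, adjusted p = 0.381), while the dimmer one rose by 0.72 and the mean of both was called (0.0282). Lysosomal and autophagy genes had 1 of 37 called in each direction (5.41%, against 5.64% of all genes). Map1lc3b (0.07), Bnip3 (0.11) and Ctsl (0.07) did not pass.

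Cirbp, an RNA-binding protein that cold and stress induce, read 7.30, 7.98, 7.27 and 7.40 on the ground and 8.75, 8.77, 8.47 and 8.51 in flight (1.14 ± 0.14, adjusted p = 0.000511). It was 1 of 7 splicing and RNA-binding genes that rose among 34 tested, with 1 lower (23.5% called, against 5.64% of all genes). The splicing factor Srsf5 read 9.75, 9.95, 9.11 and 9.57 on the ground and 10.42, 10.51, 10.25 and 10.41 in flight (0.81 ± 0.14, adjusted p = 0.00556). Both genes were separated between the groups. Srsf6 (0.60) and Rbm39 (0.51) also rose, and 7 of the 8 other probe sets of Rbm39 above the filter rose by 0.48 to 1.34. A second bright probe set of Srsf6 differed by -0.18 and did not pass, and the mean of its probe sets was not called (adjusted p = 0.18). Srsf6 also lost its call without ground AEM 4 (adjusted p = 0.0706) or spaceflight 9 (0.0539), 10 (0.0508) or 11 (0.068), and Rbm39 without any array but ground AEM 1 or 2 (0.0574 to 0.0932). The direction of Srsf10 depends on the probe set: the one read here fell by 0.29, and the others differed by 0.12 and 0.75.

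Of 33 heat shock genes 0 rose and 1 fell (3.03%), and Hspa8 (-0.06) and Hsph1 (-0.04) did not pass. Of 31 genes of the unfolded protein response 1 fell (3.23%), the chaperone Hsp90b1 (-0.46 ± 0.08, adjusted p = 0.0784 with the mean of its probe sets), and Hspa5 (0.08) and Xbp1 (-0.06) did not pass. The antioxidant and metal list, which shares Mt1 and Mt2 with the glucocorticoid list, had 5 of 34 higher and 2 lower (20.6%, against 5.64% of all genes). The zinc importer Slc39a14 rose by 0.47 ± 0.10 in 1 probe set and differed by -0.07 in the other, and the mean of the probe sets was not called (adjusted p = 0.168). Plasma glutathione peroxidase, Gpx3, rose by 0.48 ± 0.08. Gstm2 was called higher too, a call that ended without ground AEM 3 (adjusted p = 0.0656), ground AEM 4 (0.0578), spaceflight 8 (0.0608) or spaceflight 9 (0.052). The oxidative stress factor Nfe2l2 fell by 0.46 and its target Nqo1 by 0.49 ± 0.09, and Nfe2l2 lost its call without ground AEM 3 (adjusted p = 0.0725), ground AEM 4 (0.0672) or spaceflight 8 (0.0537), 10 (0.0646) or 11 (0.0578). Of 34 NF-kappa-B, STAT3 and cytokine genes 2 rose and 1 fell (8.82%), and Socs3 did not pass (-0.16). Of 38 genes of amino acid transport and metabolism 4 rose and 4 fell (21.1%), with the transporters Slc7a8 (0.82 ± 0.13), Slc1a5 (0.71 ± 0.10) and Slc7a6 (0.55 ± 0.10) higher and Slc38a2 (-0.60 ± 0.13) lower, and the call of Slc38a2 ended without ground AEM 3 (adjusted p = 0.0663). Slc7a8 lay below the level filter on every ground and calf array and was tested through the flight arrays alone, so its rise is a description. The macrophage marker that rose was the galectin Lgals3 (0.96 ± 0.16), while Cd68 (0.14) and C1qa (0.03) did not pass.

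**Figure D4:**
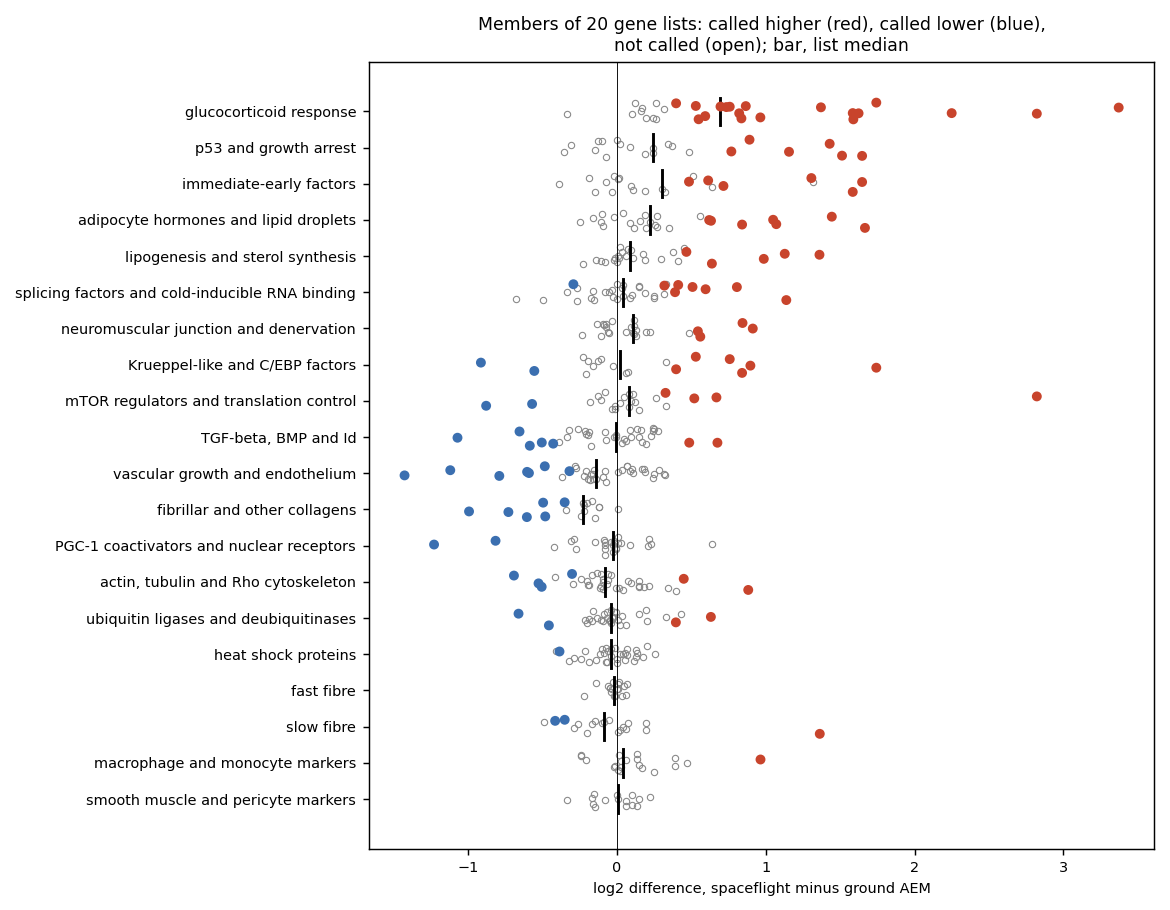
Log2 difference (spaceflight minus ground AEM, horizontal axis) of the tested members of 20 gene lists (rows); filled red points are called higher, filled blue points called lower, open points not called, the vertical jitter has no meaning, and the black bar is the list median. Among the 20, the glucocorticoid list has the bar farthest to the right at 0.70, the collagen list the bar farthest to the left at -0.23, and fast fibre genes lie close to 0.

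Remaining large changes included falls in Sh3d19, an adaptor of membrane protein shedding (6.55, 6.11, 6.56 and 6.75 on the ground against 5.28, 5.33, 5.47 and 5.57 in flight, -1.08 ± 0.12), in the transcription factor Maf (7.62, 7.62, 7.81 and 8.13 against 7.40, 6.59, 6.52 and 7.06, -0.90 ± 0.18) and in the RNA-binding protein Msi2 (-0.84 ± 0.10). The flight values of Sh3d19 all lay below the level filter, while 10 calf arrays lay above it. Of the 515 called genes, 39 had every value of the lower flight group below the filter, and 13 would not have been tested without the higher one. A second probe set of Sh3d19 differed by -0.10 and did not pass. The ketone body enzyme Bdh1, chosen after its values were seen because its groups overlap, had the lowest called difference of all genes (-1.44 ± 0.29, adjusted p = 0.012). Of 191 called genes with another probe set above the filter, 149 had the same sign in every other probe set, and 77 (40.3%) had another probe set called in the same direction, where 6.50% of all probe sets were called.

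The flight effect was also set against the calf effects, to ask which changes differ from those of unloading on the ground and of unloading followed by a return to weight bearing. Each effect was taken within its own experiment, the flight arrays share no control with the calf arrays, and the difference itself was tested over the 23 arrays. Muscle piece, housing and array range (2.75 to 2.91 in the flight arrays, 2.20 to 2.46 in the calf arrays) differ between the experiments as well, and these cannot be told apart from the treatment. The flight effect differed from the suspension effect in 116 genes (1.27%), 79 higher and 37 lower, of which 108 were also called in flight. From the effect of suspension and reloading it differed in 250 genes (2.74%), 147 higher and 103 lower, of which 201 were called in flight. The flight effect is itself a term of each difference, so these overlaps with the flight calls are partly built in.

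The metallothionein and stress genes led the differences. Mt2 differed by 0.04 ± 0.17 after suspension and by 0.22 ± 0.17 after reloading, so the flight effect exceeded these by 3.33 ± 0.46 (limma adjusted p = 0.000366) and 3.15 ± 0.46 (adjusted p = 0.000124). Ddit4 exceeded the suspension effect by 2.54 ± 0.63 (adjusted p = 0.0384) and Btg2 by 2.01 ± 0.30 (adjusted p = 0.000869). Of the 29 glucocorticoid genes, 13 differed from suspension and 14 from reloading, and the list's median was 0.03 in the suspension and 0.07 in the reloading comparison. Among the falls, Aplnr differed from the suspension effect by -1.25 ± 0.24 (adjusted p = 0.00495) and Flcn by -0.91 ± 0.15 (adjusted p = 0.00114). Of the 17 collagens 0 differed from either calf effect, and so did 0 of the 26 lipogenic genes, 0 of the 18 fast and 0 of the 19 slow fibre genes. Over all tested genes only 1.27% differed from suspension and 2.74% from reloading, so these zeros say little about lists this short. Fasn illustrates the lipogenic list, with 1.13 ± 0.14 in flight, 1.62 ± 0.32 after suspension and a difference of -0.50 ± 0.43 (adjusted p = 0.69). A p above the threshold does not show that such effects are equal.

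Against reloading the largest negative differences were in Hspa1b, Hspa1a, Ppargc1a, Slc38a2 and Adamts1. Ppargc1a fell by 1.23 in flight, gave 1.25 ± 0.27 in the reloaded calf, which did not pass (adjusted p = 0.056), and differed by -2.48 ± 0.38 between them (adjusted p = 0.00017). The inducible heat shock proteins Hspa1b and Hspa1a were not called in flight (-0.41 and -0.19), against 2.67 ± 0.26 and 2.45 ± 0.28 after reloading, a difference of -3.07 ± 0.37 (adjusted p = 2.61e-05) and -2.64 ± 0.39 (adjusted p = 0.00015). Slc38a2 differed by -2.05 ± 0.24 and Adamts1 by -1.76 ± 0.28. Slc38a2 fell by 0.60 in flight and rose by 1.45 after reloading, and Adamts1 fell by 0.89 in flight and gave 0.87 after reloading, which did not pass (adjusted p = 0.0761). The immediate-early factor Atf3 gave 0.48 in flight and 2.02 after reloading, a difference of -1.54 ± 0.35 (adjusted p = 0.0139). Jun (0.61 in flight, 1.02 after reloading) and Ier5 (0.72 and 0.87) were higher in both, and their differences did not pass.

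**Figure D5:**
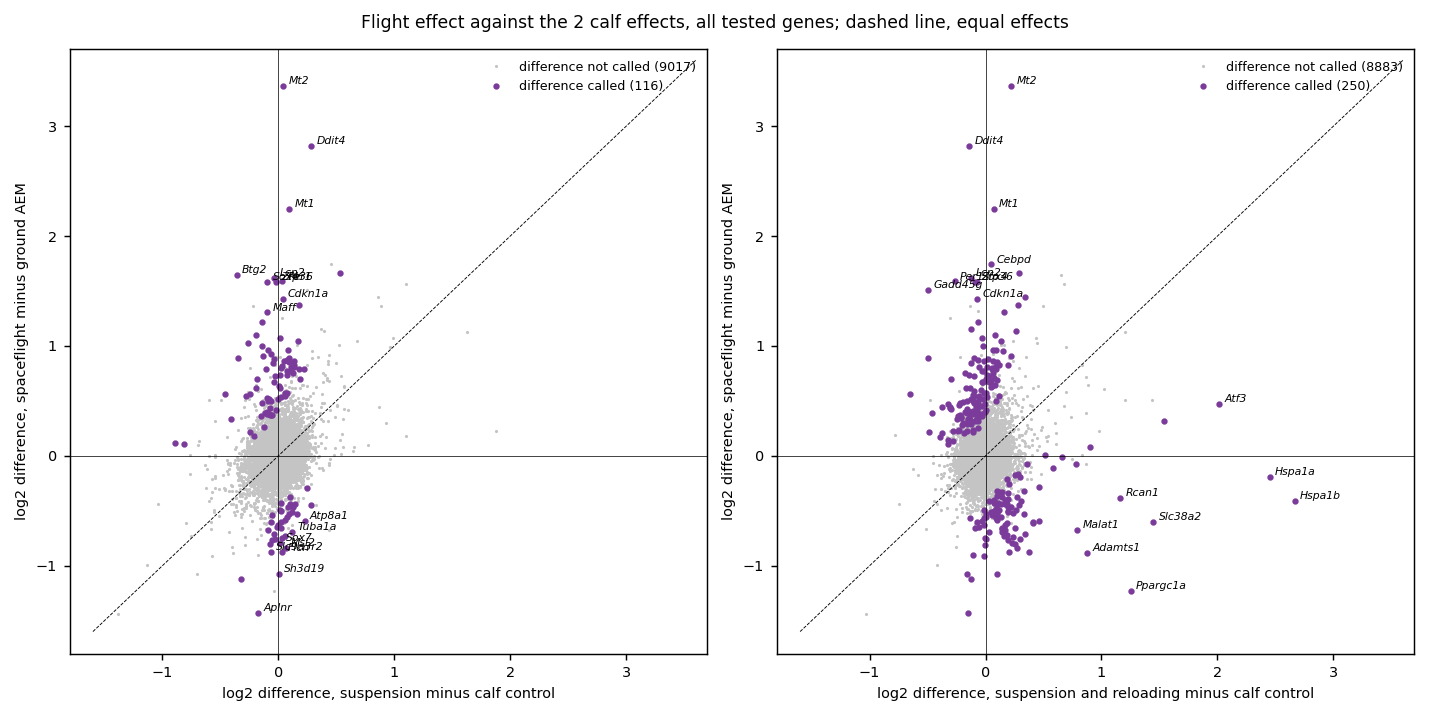
Log2 difference between spaceflight and ground AEM (vertical axis) against that between suspended (left) or suspended and reloaded (right) calf muscle and calf controls (horizontal axis) for the 9133 tested genes; purple points are the 116 and 250 genes whose effects differ, grey points the rest, and the dashed line marks equal effects. Mt2, Ddit4 and Mt1 lie high near 0 on both horizontal axes, and Hspa1b, Hspa1a and Ppargc1a lie to the right of 0 and at or below 0 on the vertical axis in the reloading panel.

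Suspension alone changed 34 genes, and 12 of them were called in flight, all in the same direction. This is 35.3% of the suspension genes and 2.33% of the flight genes, where 5.64% of all tested genes were called in flight. The lipogenic and metabolic genes Fasn, Tkt, Cyp2e1 and Gpt2 were higher in both, and Id1, Klf4, Bdh1 and the Z-disc protein Pdlim1 lower in both. Id1 fell by 1.07 in flight and 0.71 after suspension, and Pdlim1 by 0.61 and 0.79. Reloading changed 29 genes against calf controls, and 8 of these were called in flight, where 5.64% of all tested genes were. Of the 8, 1 went the opposite way, Slc38a2. The call of Gpt2 in flight ended without ground AEM 3 (adjusted p = 0.059), spaceflight 8 (0.0502) or spaceflight 9 (0.0572).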

How the data were processed

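The labels' protocols describe snap-frozen tissue, Trizol extraction, RNeasy cleanup and biotin-labelled cRNA on Affymetrix arrays. The authors deposited log2 values (2.49 to 14.2) for 22690 probe sets on 23 arrays. RMA and MAS5 are named in the submitters' processing notes; which of them made the table, with which versions, is not given in the sources used here, and no normalization was added. Of 22626 non-control probe sets, 20380 have 1 gene symbol in the platform annotation, which can be old, 691 several and 1555 none here; 12393 genes were each read by the probe set with the highest mean over the 23 arrays. The 9133 genes above log2 5.83, which is the 40th percentile, in 4 or more arrays were tested with limma 3.58.1 (lmFit, eBayes, two-sided) in R 4.3.3 on the 8 arrays alone; differences of effects used 23 arrays and 5 group means. A call is a Benjamini-Hochberg adjusted p under 0.05 over all tested genes, and ± is the SE. The script was tested on simulated data. The number of arrays limits the precision.

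Named genes are the 15 largest called rises and falls without overlap, up to 8 called members and fixed members of each of 52 lists, and the 5 largest called differences of effects each way. The comparison and the lists were chosen with earlier results of these data known. Alternatives changed the filter, probe set, scaling, eBayes setting, weights, threshold, covariate, arrays and group labels. Promoter windows from RefSeq matched 7340 tested genes by Entrez ID, 1525 of them with several starts, of which the first listed was used. Trim63 and Mstn were not analysed here. No label names a scan date or batch, and none was tested.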

Additional observations from a re-analysis of the deposited data

Results flagged for a closer look

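Within groups of 4 arrays, 28 of the 474 groups of named genes had 1 array far from the other 3 by Dixon's criterion, where chance gives about 1 in 20. Ground AEM 2 was that array 7 times. It stood highest of the ground arrays for Ddit4 (10.68), Btg2 (9.96), Zfp36 (8.98), Col4a1 (9.98) and Myh4 (13.49), and lowest for Adipoq (8.08) and Asb15 (6.63). On the other ground arrays, Flcn was highest on ground AEM 1 (9.39) and Ucp3 lowest there (8.80), Atp1b1 was highest on ground AEM 3 (11.29) and Klf10 lowest there (7.75), and Pfkfb2 was highest on ground AEM 4 (5.96) and Fabp4 lowest there (10.63).

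Spaceflight 11 was lowest of its group for Fos (7.69), Dusp1 (9.96), Sln (7.42) and Ube2j1 (8.75) and highest for Dnm1l (8.97). Spaceflight 10 was highest for Cdkn1a (10.77), Pdlim1 (9.78) and Rcan2 (8.93) and lowest for Myh1 (12.32). Spaceflight 8 was highest for Lep (6.56) and lowest for Hspa8 (11.25) and Pfkfb2 (5.37), and spaceflight 9 was highest for Max (7.41) and lowest for Pik3r1 (7.02) and Rgs4 (6.26).

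Differences between the flight and the suspension effect were flagged by limma's test of the difference for Mt2 (3.33), Ddit4 (2.54), Mt1 (2.16), Btg2 (2.01), Sox4 (1.68), Aplnr (-1.25), Sh3d19 (-1.08), Flcn (-0.91), Msi2 (-0.90) and Atp8a1 (-0.82). Against suspension and reloading the same test flagged Mt2 (3.15), Ddit4 (2.96), Mt1 (2.18), Gadd45g (2.01), Per1 (1.86), Hspa1b (-3.07), Hspa1a (-2.64), Ppargc1a (-2.48), Slc38a2 (-2.05) and Adamts1 (-1.76). The arrays of the 2 experiments differ in muscle piece and range, which cannot be told apart from the treatment.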

How the results depend on the processing

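No paired analysis was possible because the spaceflight replicates (8 to 11) and the ground AEM replicates (1 to 4) share no number. The 515 calls of the flight comparison became 885 with each probe set on its own, 318 with array range as a covariate, 181 at an adjusted p under 0.01 and 153 with a change of at least 1.5-fold, and lay between 283 and 491 with 1 array left out. The 116 differences from the suspension effect became 210 with each probe set on its own, 529 with the flight groups exchanged, which turns the difference into a sum, and 40 at an adjusted p under 0.01, and lay between 78 and 157 with 1 array left out. The 250 differences from the effect of suspension and reloading became 453 with each probe set on its own, 436 with array weights, 94 at an adjusted p under 0.01 and 155 with a change of at least 1.5-fold, and lay between 181 and 298 with 1 array left out. In the other alternatives these 3 counts stayed within 1.5 times. Centring on the median of all probe sets, which differs between spaceflight and ground AEM by -0.03, gave 115 higher and 28 lower differences from suspension in place of 79 and 37. Centring on the median of the tested genes split the reloading differences into 124 higher and 122 lower in place of 147 and 103. Srsf10 turned sign, to 0.12 with filter and probe set chosen on the 8 arrays and to 0.16 with the mean of the probe sets, because another probe set enters. Of 168 named genes called, 81 kept the call under every alternative tried. The causes of the other changes were not tested.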
